A study of Homo sapiens with 8 samples.

Results

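The genes described here are 10 genes of the absorptive cells of the gut lining and of the carcinoembryonic antigen (CEA) family: CDX1, CDX2, VIL1, ANPEP, DPP4, CA2, CEACAM1, CEACAM5, CEACAM6 and TSPAN8. They were taken by name from a deposited table of 60796 genes, and all 10 were found. Of these, 8 reached 1 FPKM (fragments per kilobase of gene, scaled to the mapped fragments of the library) in at least 2 of the 8 libraries and were among the 13388 genes tested. CDX1 and ANPEP did not, and are described by their reads. The 8 RNA-sequencing libraries came from HT-29 cells, a human colorectal adenocarcinoma line, kept in RPMI-1640 medium with 10% fetal bovine serum. The cells had received 5-FU (5-fluorouracil, a drug that blocks thymidylate synthesis), the 74 3NP extract (MRQ 74 rice), the 76 3P extract (MRQ 76 rice) or neither (control), and each treatment had 1 library at 48 h and 1 at 24 h. The labels say that the extracts were used at their IC50. They state no concentration, no dose of 5-FU, no vehicle for the controls and no meaning of 3NP and 3P, and their treatment field reads plant extract for every library, controls included. The labels enter the time as the batch, so time and batch cannot be told apart.

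Absorptive enterocytes carry a brush border, a dense carpet of microvilli on the face towards the gut lumen. CDX1 and CDX2 are homeodomain transcription factors of the intestinal lineage, and CDX2 is used by pathologists as a marker of intestinal origin. VIL1 (villin) bundles and severs the actin filaments of the microvilli, ANPEP (aminopeptidase N) and DPP4 (dipeptidyl peptidase 4) are membrane peptidases that trim dietary peptides, and CA2 (carbonic anhydrase II) is a cytosolic enzyme that interconverts carbon dioxide and bicarbonate. CEACAM1, CEACAM5 and CEACAM6 are adhesion proteins of the immunoglobulin superfamily. CEACAM5 is the carcinoembryonic antigen measured in the blood of patients with colorectal cancer, CEACAM6 is anchored to the membrane by a lipid as CEACAM5 is, and CEACAM1 spans the membrane and signals through its cytoplasmic tail. TSPAN8 is a tetraspanin, a protein with several membrane passes that organises other surface proteins.

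The promoters of CEACAM5, CEACAM6 and CEACAM1 are shown because the 3 genes are neighbours in family but gave different values, and that of CDX2 because it is the transcription factor among the tested genes. Each is 300 bases, 250 before and 50 after the RefSeq gene start, on GRCh38.p14 and on the strand of the gene, and RefSeq promoters were at hand for 7 of the 10 genes. Capitals mark TTTAT, a core of the CDX recognition sequence, on either strand (ATAAA when it lies on the other strand), and CACGTG, an E-box, which reads the same on both strands.
CEACAM5 (chr19:41708376-41708675, plus): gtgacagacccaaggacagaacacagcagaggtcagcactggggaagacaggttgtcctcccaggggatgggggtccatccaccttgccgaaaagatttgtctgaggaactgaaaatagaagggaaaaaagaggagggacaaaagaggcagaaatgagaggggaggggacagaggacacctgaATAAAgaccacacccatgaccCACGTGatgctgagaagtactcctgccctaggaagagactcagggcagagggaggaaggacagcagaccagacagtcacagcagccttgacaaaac
CEACAM6 (chr19:41755280-41755579, plus): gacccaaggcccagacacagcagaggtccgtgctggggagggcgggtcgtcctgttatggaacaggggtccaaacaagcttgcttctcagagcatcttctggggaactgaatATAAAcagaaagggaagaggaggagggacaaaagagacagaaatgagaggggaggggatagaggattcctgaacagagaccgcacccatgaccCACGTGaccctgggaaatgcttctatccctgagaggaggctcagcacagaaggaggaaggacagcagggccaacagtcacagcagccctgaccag
CEACAM1 (chr19:42528432-42528731, minus): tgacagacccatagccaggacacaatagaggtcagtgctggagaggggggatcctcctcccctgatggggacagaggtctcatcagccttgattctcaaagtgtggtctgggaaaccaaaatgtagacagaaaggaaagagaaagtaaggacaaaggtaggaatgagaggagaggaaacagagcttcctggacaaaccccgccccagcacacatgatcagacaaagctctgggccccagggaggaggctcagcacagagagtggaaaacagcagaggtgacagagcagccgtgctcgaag
CDX2 (chr13:27969266-27969565, minus): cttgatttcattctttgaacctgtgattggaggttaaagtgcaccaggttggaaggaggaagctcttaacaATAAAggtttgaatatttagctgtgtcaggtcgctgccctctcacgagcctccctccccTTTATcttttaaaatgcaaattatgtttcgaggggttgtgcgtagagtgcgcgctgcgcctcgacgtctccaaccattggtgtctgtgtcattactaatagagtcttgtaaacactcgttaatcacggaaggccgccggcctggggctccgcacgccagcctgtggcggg
The CEACAM5 and CEACAM6 promoters aligned with 230 of 292 bases identical (78.8%). CEACAM1 was identical to CEACAM5 at 203 of 287 aligned bases (70.7%) and to CEACAM6 at 214 of 286 (74.8%). The E-box stood at bases -46 to -41 from the gene start in CEACAM5 and at -45 to -40 in CEACAM6, and was not found in the CEACAM1 window. CACGTG was held by 7.26% of all 35116 RefSeq promoters of the same length. TTTAT or its complement stood at -67 to -63 in CEACAM5, at -138 to -134 in CEACAM6, and at -179 to -175 and -120 to -116 in CDX2, with none in the CEACAM1 window. In CEACAM6 it lay inside TATAAA, a motif found in 11.5% of promoters. TTTAT on either strand was held by 34.9% of promoters, so these matches describe the sequences and are not evidence of binding.

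On GRCh38, which the submitters' processing notes name, the deposited table placed CEACAM5 on the plus strand at chr19:41708585-41730433 and CEACAM6 downstream of it at chr19:41750977-41772211, while CEACAM1 lay on the minus strand at chr19:42507304-42561234. VIL1 (chr2:218419121-218453295, plus) and DPP4 (chr2:161992245-162074215, minus) shared a chromosome. CDX2 lay at chr13:27960918-27969315 (minus), CDX1 at chr5:150166778-150184558 (plus), CA2 at chr8:85463968-85481493 (plus), ANPEP at chr15:89784895-89815401 (minus) and TSPAN8 at chr12:71125085-71441898 (minus). No source used here gives whether counting used strand, so reads of a gene and of one on the opposite strand cannot be told apart. The genes listed there on the opposite strand were low: USP37 over VIL1 averaged 2.23 FPKM, LIPE-AS1 over CEACAM1 reached at most 1.60 FPKM and LGR5, inside the long TSPAN8 gene model, at most 0.941 FPKM. The CEACAM genes are near copies of each other in their coding sequence. How reads that map to several genes were counted is not given either, so the split of reads among CEACAM genes is uncertain.

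Per gene length, averaged over the 8 libraries, VIL1 was highest at 24.3 ± 8.24 FPKM (SD, n = 8), followed by DPP4 at 17.0 ± 2.83 and TSPAN8 at 13.0 ± 7.32. CEACAM6 and CEACAM1 followed at 7.05 ± 3.498 and 6.60 ± 2.45 FPKM, then CDX2 at 2.52 ± 1.72, CA2 at 2.41 ± 1.60 and CEACAM5 at 1.81 ± 1.67. CDX1 and ANPEP averaged 0.101 FPKM each. Each gene differed from the next in this order by less than the larger of their 2 SDs, apart from the steps from CEACAM1 to CDX2 and from CEACAM5 to CDX1 and ANPEP. VIL1 stood at percentile 84.7 of the tested genes by mean FPKM and CEACAM5 at percentile 20.5. The labels call the cells enterocytes. All 6 epithelial markers were at 1 FPKM or more in every library (KRT8 at 480 to 991 FPKM, KRT20, a keratin of differentiated gut epithelium, at 22.4 to 119 FPKM), but most defining enterocyte genes were at or near 0: of 36 brush border enzymes and transporters 7 passed the filter, LCT (lactase) was at 0 in all 8 libraries and SI (sucrase-isomaltase) reached at most 0.0351 FPKM.

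**Figure D1:**
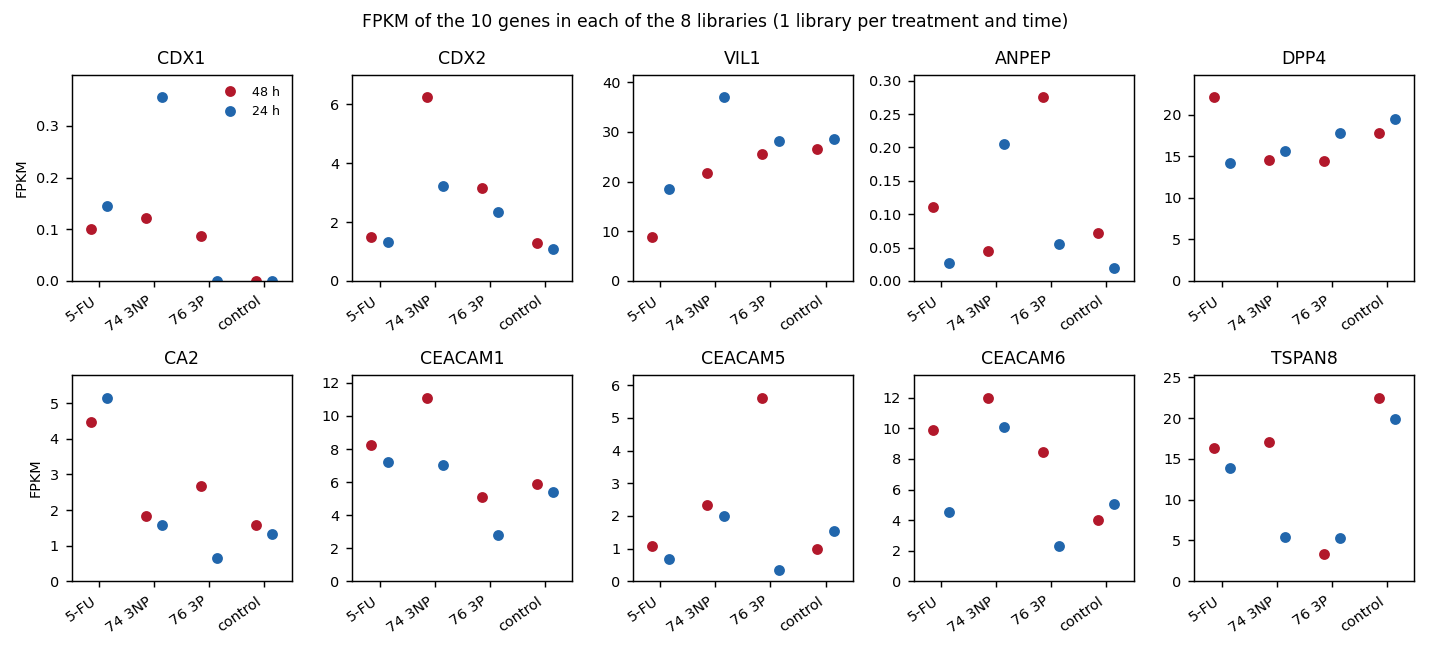
FPKM (vertical axis, from 0, a scale per gene) of the 10 genes in the 8 libraries, with the 3 treatments left of the control, 48 h in red and 24 h in blue; each point is 1 library. CDX2 stands above both control libraries in all 4 extract libraries, TSPAN8 below them in all 6 treated libraries, and CEACAM5 is highest in the 76 3P library at 48 h (5.62 FPKM) and lowest in the 76 3P library at 24 h (0.332 FPKM).

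Recovered reads on genes numbered 18141663 to 28048517 per library. The 76 3P library at 48 h stood apart: 26712 genes had at least 1 read there (23111 to 24665 elsewhere), and it had 6.83% of reads on mitochondrial genes, against 2.96% to 5.52% in the others. Summed goblet markers were also highest there (85.3 FPKM, against 39.8 to 58.3 FPKM; 3 of 8 markers at 1 FPKM or more, against 2 or 3). AGR2 made 78.8 FPKM of that sum, while SPDEF, a transcription factor of goblet cells, was at its lowest of the 8 libraries there (3.95 FPKM, against 14.2 FPKM in the control at 48 h). Summed epithelial markers were lowest in that library (1425 FPKM, against 1816 to 2776 FPKM in the others). Among them CDH1 alone went the other way, at its highest there (87.2 FPKM). Enteroendocrine and endothelial markers summed to at most 0.339 and 0.541 FPKM in any library, and of 6 fibroblast markers only COL1A1 reached 1 FPKM (1.08 to 6.21). Among leukocyte markers PTPRC and CD3E were near 0, while LYZ was at 215 to 601 FPKM and CD14 at 0.671 to 9.83 FPKM. Treatments were compared with limma on log2(FPKM + 1), a scale that understates the fold of low genes, with treatment and time as additive terms over all 8 libraries. Each treatment thus has n = 2 libraries, and no label ties the libraries to separate cultures, so the p-values reflect no more than how these libraries vary. All adjusted p-values are limma's with Benjamini-Hochberg adjustment over the genes tested in that fit, 13388 unless another filter is named. At 1 time, 1 library stands against 1 library, with no replicate check and no test. The ratio of FPKM is then given with an exact 95% interval from the recovered reads, which covers counting error only.

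Against control, none of the 8 tested genes passed the 0.05 threshold with any of the 3 treatments. With 5-FU the test called 5.53% of all genes, 336 higher and 404 lower (257 higher and 506 lower after scaling to total reads), and 0 of the 8. An unadjusted p under 0.05 was held by 2 of the 8 and by 3885 of the 13388 tested genes. Limma-voom on recovered reads called 1 of the 8 and 1137 of the 13388. With the 74 3NP extract the test called 0.0523% of all genes and 0 of the 8. Unadjusted, 4 of the 8 and 1623 of the 13388 were under 0.05, and voom called 0 of the 8 and 12 of the 13388. With the 76 3P extract it called 0% of all genes and 0 of the 8 (2 unadjusted, 0 by voom), and over all genes the unadjusted p was under 0.05 for 2356, while voom made 60 calls. The median log2 difference of the 8 was 0.03 with 5-FU, 0.32 with the 74 3NP extract and -0.01 with the 76 3P extract, beside medians over all tested genes of 0.0033, -0.03 and -0.05. The 3 comparisons share the 2 control libraries. At single times, a difference of 1.5-fold or more, taken on log2(FPKM + 1), was reached with 5-FU by 3 of the 8 at 48 h, beside 41.1% of all tested genes, and by 3 of the 8 at 24 h, beside 18.1%. The 74 3NP extract had 4 of the 8 past this fold at 48 h, all higher, beside 11.2% of all genes, and 3 at 24 h, beside 17.7%. The 76 3P extract had 4 past it at 48 h (3 higher), beside 28.9%, and 5 at 24 h (4 lower), beside 11.5%.

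CDX2 was higher in all 4 extract libraries than in either control. It stood at 6.24 FPKM at 48 h and 3.22 FPKM at 24 h with the 74 3NP extract, at 3.15 and 2.34 FPKM with the 76 3P extract, and at 1.5 and 1.31 FPKM with 5-FU, against 1.29 FPKM at 48 h and 1.10 FPKM at 24 h in controls. The 4 extract libraries did not overlap the controls, and the 74 3NP libraries did not overlap the 76 3P libraries. The share of all tested genes outside both controls was not counted. A lack of overlap, here and for the genes below, is therefore a description only. The ratio to the control of the same time was 4.83 (95% interval 3.89 to 6.05) at 48 h and 2.93 (2.27 to 3.81) at 24 h with the 74 3NP extract. For the 76 3P extract it was 2.44 (1.94 to 3.08) and 2.12 (1.65 to 2.76). With 5-FU the intervals of both ratios held 1, at 1.16 (0.864 to 1.56) at 48 h and 1.19 (0.889 to 1.61) at 24 h. In limma the mean difference from control was 1.33 (SE 0.22, adjusted p = 0.109) with the 74 3NP extract and 0.76 (SE 0.22, adjusted p = 0.154) with the 76 3P extract, neither of which passed. In a fit of the 4 libraries compared alone, which takes the spread from those 4, the 74 3NP difference of CDX2 passed (adjusted p = 0.00689).

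CDX1, the paralog of CDX2, was near 0. It had 3 and 6 reads with 5-FU at 48 h and 24 h, 4 and 12 reads with the 74 3NP extract, and 4 and 0 reads with the 76 3P extract, against 0 and 0 reads in controls. These are levels of at most 0.355 FPKM, where a control count of 0 allows up to 3 reads, or 0.0738 FPKM at 48 h and 0.0779 FPKM at 24 h. The exact 95% interval of the ratio to the control began at 3.16 for the 12 reads of the 74 3NP library at 24 h and at 1.09 for the 6 reads of the 5-FU library at 24 h. For the 4 reads with the 74 3NP extract and the 4 with the 76 3P extract at 48 h it began at 0.815 and 0.577, and the other two treated libraries had 3 and 0 reads.

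VIL1, the microvillus actin bundler, was lower with 5-FU. It stood at 8.91 FPKM at 48 h and 18.4 FPKM at 24 h with 5-FU, at 21.7 and 36.9 FPKM with the 74 3NP extract and at 25.6 and 28.2 FPKM with the 76 3P extract, against 26.4 FPKM at 48 h and 28.5 FPKM at 24 h in controls. The 5-FU libraries lay below both controls without overlap, while the extract libraries overlapped them. The 5-FU ratio to control was 0.337 (0.314 to 0.361) at 48 h and 0.647 (0.617 to 0.678) at 24 h. The mean limma difference was -1.04 (SE 0.26, adjusted p = 0.0546), just outside the threshold. It passed with scaling to total reads (-1.15, adjusted p = 0.0469), with quantile normalization (-1.12, adjusted p = 0.0490), with voom (-1.20, adjusted p = 0.0313), with a filter at 5 FPKM (-1.04, adjusted p = 0.0315) and in the fit of the 4 libraries compared (adjusted p = 0.0349). It also passed without either 76 3P library (adjusted p = 0.0462 and 0.0464). It did not pass with pseudocounts of 0.1 and 5, no filter, median-ratio scaling or no variance trend, nor without either 74 3NP library. Without the 5-FU library at 24 h the difference was -1.36, with 1 library of 5-FU left. Summed markers of intestinal stem cells, of which 3 of 6 were at 1 FPKM or more in every library, were also low with 5-FU, at 14.01 FPKM at 48 h and 18.8 FPKM at 24 h, against 28.8 and 26.7 FPKM in controls (19.04 to 31.8 FPKM with the extracts). Among them PROM1 was at 1.35 and 3.58 FPKM with 5-FU, against 8.27 and 6.01 FPKM in controls. ASCL2 was at 1.65 and 3.99 FPKM with 5-FU, against 5.57 and 5.12 FPKM in controls, and AXIN2 was lower as well. The marker LGR5, under 1 FPKM in every library, went the other way. It was at 0.941 and 0.802 FPKM with 5-FU, against 0.527 and 0.6175 FPKM in controls. OLFM4 and SMOC2 were near 0 in all libraries. KRT20, a keratin of differentiated gut epithelium, was at 119 FPKM at 48 h and 50.3 FPKM at 24 h with 5-FU, against 51.4 and 72.1 FPKM in controls. With the 76 3P extract KRT20 was at 22.4 and 33.1 FPKM, and with the 74 3NP extract at 39.8 and 54.8 FPKM. The part of these markers in the VIL1 values was not tested. In this bulk RNA, fewer cells of a kind and less RNA per cell cannot be told apart. In the 74 3NP libraries VIL1 was at 0.821 times the control (0.782 to 0.861) at 48 h and at 1.29 times (1.24 to 1.35) at 24 h, and with the 76 3P extract both intervals held 1.

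The membrane peptidases differed in level. DPP4 stood at 22.05 FPKM at 48 h and 14.1 FPKM at 24 h with 5-FU, at 14.5 and 15.6 FPKM with the 74 3NP extract and at 14.4 and 17.8 FPKM with the 76 3P extract, against 17.8 FPKM at 48 h and 19.5 FPKM at 24 h in controls. Its highest library was 1.56 times its lowest, the smallest such fold among the 10 genes. Both 74 3NP libraries lay below both controls, and the 76 3P library at 24 h was level with the control at 48 h (17.84 FPKM each). The ratio to the control of the same time was 0.815 (0.759 to 0.876) at 48 h and 0.800 (0.747 to 0.8575) at 24 h with the 74 3NP extract. With the 76 3P extract it was 0.808 (0.757 to 0.863) and 0.916 (0.863 to 0.972), and with 5-FU 1.24 (1.16 to 1.32) and 0.725 (0.678 to 0.7755). No mean difference of DPP4 from control was beyond -0.29 (SE 0.25, adjusted p = 0.649, 74 3NP extract). ANPEP had 2 to 35 reads per library and reached at most 0.275 FPKM. Its highest libraries were the 76 3P library at 48 h, with 35 reads against 8 in the control (ratio 3.83, 1.74 to 9.55), and the 74 3NP library at 24 h, with 19 reads against 2 (ratio 10.8, 2.61 to 95.8).

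CA2, carbonic anhydrase II, was higher with 5-FU at both times. It stood at 4.48 FPKM at 48 h and 5.15 FPKM at 24 h with 5-FU, at 1.83 and 1.57 FPKM with the 74 3NP extract and at 2.68 and 0.643 FPKM with the 76 3P extract, against 1.57 FPKM at 48 h and 1.33 FPKM at 24 h in controls. The 5-FU libraries were the highest of all 8. The 5-FU ratio was 2.86 (2.14 to 3.84) at 48 h and 3.87 (2.90 to 5.25) at 24 h, and the mean limma difference of 1.25 (SE 0.31, adjusted p = 0.0516) missed the threshold. With a pseudocount of 5 the difference was 0.61 and the adjusted p was 0.0478, and it also passed in the fit of the 4 libraries compared (adjusted p = 0.0148) and without either 76 3P library (adjusted p = 0.0307 and 0.0310). The 5-FU difference of CA2 did not pass with a pseudocount of 0.1, no filter, another scaling, no variance trend or voom. Nor did it pass without either 74 3NP library. In the 76 3P libraries CA2 stood at 1.71 times the control (1.28 to 2.31) at 48 h but at 0.483 times (0.312 to 0.740) at 24 h.

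Of the CEA family, CEACAM6 was higher in both 74 3NP libraries than in controls. It stood at 12.0 FPKM at 48 h and 10.1 FPKM at 24 h with the 74 3NP extract, at 9.89 and 4.56 FPKM with 5-FU and at 8.46 and 2.32 FPKM with the 76 3P extract, against 4.02 FPKM at 48 h and 5.05 FPKM at 24 h in controls. The 74 3NP ratio was 2.99 (2.59 to 3.45) at 48 h and 2.0 (1.74 to 2.30) at 24 h, and the mean limma difference of 1.12 (SE 0.37, adjusted p = 0.319) did not pass, except in the fit of the 4 libraries compared (adjusted p = 0.00672). The 76 3P ratio of CEACAM6 was 2.11 (1.83 to 2.44) at 48 h and 0.460 (0.384 to 0.549) at 24 h. The 5-FU ratio was 2.46 (2.12 to 2.87) at 48 h and 0.902 (0.770 to 1.06) at 24 h.

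CEACAM5, the carcinoembryonic antigen gene, had the widest fold between libraries among the tested genes described here, 16.9 between the highest and the lowest. It stood at 5.62 FPKM at 48 h and 0.332 FPKM at 24 h with the 76 3P extract (586 and 39 reads), at 2.33 and 2.001 FPKM with the 74 3NP extract and at 1.07 and 0.676 FPKM with 5-FU, against 0.975 FPKM at 48 h and 1.53 FPKM at 24 h in controls (89 and 132 reads). Both extremes were 76 3P libraries. The 76 3P ratio to control was 5.76 (4.60 to 7.28) at 48 h and 0.218 (0.148 to 0.313) at 24 h. Over both times this left a mean limma difference of 0.41 (SE 0.53, adjusted p = 0.724). The 74 3NP libraries lay above both controls, with ratios of 2.39 (1.84 to 3.12) at 48 h and 1.31 (1.03 to 1.67) at 24 h and a mean difference of 0.50 (SE 0.53, adjusted p = 0.725). With 5-FU the ratio was 1.09 (0.790 to 1.51) at 48 h and 0.443 (0.323 to 0.602) at 24 h.

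CEACAM1, the transmembrane member, differed between the extracts at both times. It stood at 11.1 FPKM at 48 h and 7.01 FPKM at 24 h with the 74 3NP extract, at 5.10 and 2.79 FPKM with the 76 3P extract and at 8.23 and 7.23 FPKM with 5-FU, against 5.90 FPKM at 48 h and 5.41 FPKM at 24 h in controls. The 74 3NP and 5-FU libraries lay above both controls, and the 76 3P libraries below both. The ratio to control was 1.88 (1.72 to 2.07) at 48 h and 1.30 (1.16 to 1.44) at 24 h with the 74 3NP extract, 0.865 (0.780 to 0.960) and 0.516 (0.457 to 0.583) with the 76 3P extract, and 1.40 (1.26 to 1.55) and 1.34 (1.21 to 1.48) with 5-FU. The mean limma differences of 0.57 (SE 0.21, adjusted p = 0.362), -0.47 (SE 0.21, adjusted p = 0.294) and 0.39 (SE 0.21, adjusted p = 0.247) did not pass.

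TSPAN8, the tetraspanin, was lower than both controls in all 6 treated libraries. It stood at 3.38 FPKM at 48 h and 5.25 FPKM at 24 h with the 76 3P extract, at 17.0 and 5.47 FPKM with the 74 3NP extract and at 16.4 and 13.9 FPKM with 5-FU, against 22.5 FPKM at 48 h and 19.9 FPKM at 24 h in controls. The 76 3P ratio to control was 0.150 (0.129 to 0.174) at 48 h and 0.264 (0.234 to 0.297) at 24 h. For the 74 3NP extract it was 0.757 (0.691 to 0.829) at 48 h and 0.275 (0.238 to 0.315) at 24 h, so that the extract libraries lay close together at 24 h and apart at 48 h. With 5-FU it was 0.727 (0.660 to 0.799) and 0.696 (0.634 to 0.764). The mean limma difference was -2.08 (SE 0.39, adjusted p = 0.0853) with the 76 3P extract, -1.04 (SE 0.39, adjusted p = 0.365) with the 74 3NP extract and -0.47 (SE 0.39, adjusted p = 0.449) with 5-FU, none of which passed. The 74 3NP difference was called in the fit of the 4 libraries compared alone (adjusted p = 0.0460). The 76 3P difference was called with a filter at 5 FPKM (adjusted p = 0.0281) and in its own fit of 4 libraries (adjusted p = 0.0166). Without the 76 3P library at 24 h it was -2.65, with 1 library of that extract left.

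**Figure D2:**
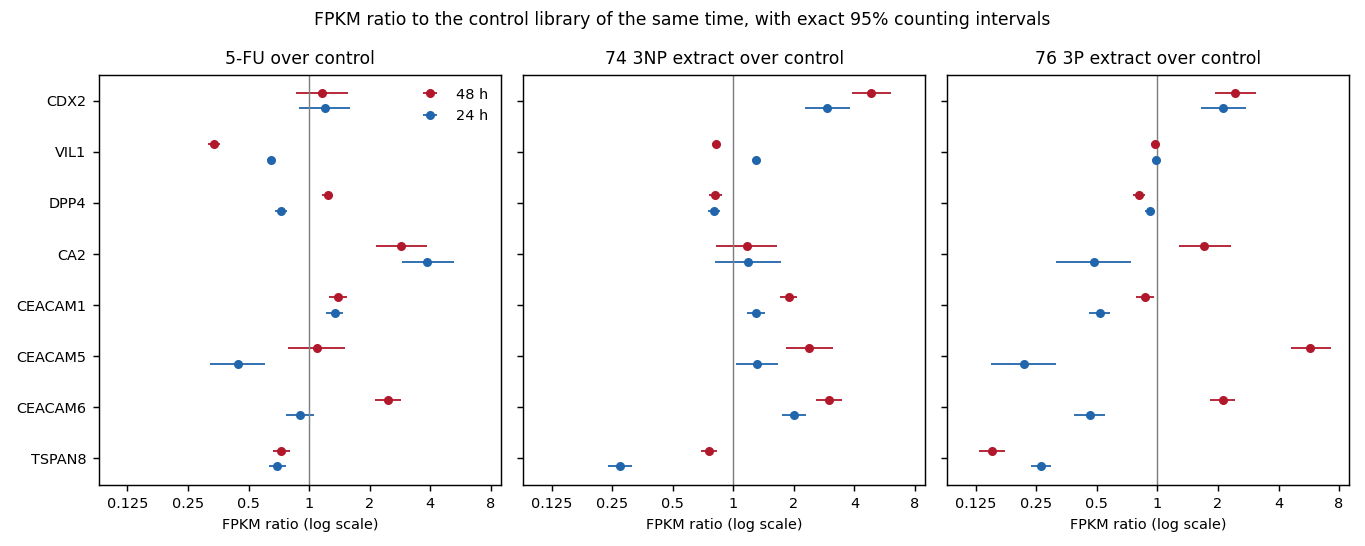
FPKM ratio to the control library of the same time (horizontal axis, log scale; the grey line is 1) for the 8 tested genes, a panel for each treatment, 48 h in red and 24 h in blue, with exact 95% intervals that cover counting error only. With the 76 3P extract CEACAM5, CEACAM6 and CA2 lie right of 1 at 48 h and left of it at 24 h, while TSPAN8 lies left and CDX2 right at both times.

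**Figure D3:**
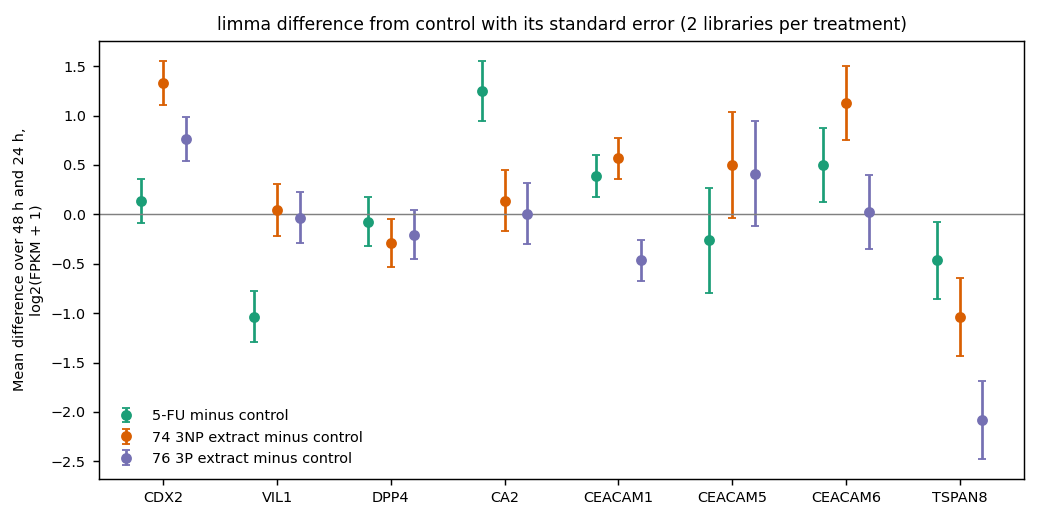
Mean limma difference from control on the log2(FPKM + 1) scale (vertical axis) with its standard error, for the 8 tested genes, over both times (2 libraries per treatment and 2 controls). The differences farthest from 0 are TSPAN8 with the 76 3P extract (-2.08), CDX2 with the 74 3NP extract (1.33) and CA2 with 5-FU (1.25), and none passed the adjusted threshold.

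Set against 5-FU, some of the 8 genes passed. The 74 3NP extract against 5-FU gave calls for 10.8% of all genes and for 2 of the 8, both higher than with 5-FU: CDX2 by 1.20 (SE 0.22, adjusted p = 0.0218) and VIL1 by 1.08 (SE 0.26, adjusted p = 0.0389). CDX2 stood at 6.24 and 3.22 FPKM with the 74 3NP extract, against 1.5 and 1.31 FPKM with 5-FU. CA2 differed by -1.11 (SE 0.31, adjusted p = 0.0534) and missed the threshold. Neither call remained without the 5-FU library at 48 h (CDX2 1.05, adjusted p = 0.131; VIL1 0.76, adjusted p = 0.198), the 74 3NP library at 48 h (0.90, adjusted p = 0.171; 1.25, adjusted p = 0.158) or the 74 3NP library at 24 h (1.498, adjusted p = 0.118; 0.91, adjusted p = 0.244), and the VIL1 call was also lost without the control library at 48 h (adjusted p = 0.0648) or at 24 h (adjusted p = 0.0652). With no filter on low values neither passed (adjusted p = 0.144 for CDX2 and 0.173 for VIL1), nor did any of the 33187 genes then tested. Fits without the 5-FU library at 48 h or either 74 3NP library lost the calls of other genes as well. With a pseudocount of 5, in the fit of 4 libraries or without either 76 3P library, 3 of the 8 were called, 1 of them lower. These settings called 1260 to 2068 of all 13388 genes.

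With the 76 3P extract against 5-FU, the test called 19.3% of all genes, 1176 higher and 1411 lower (1452 higher and 1028 lower after scaling to total reads), and 4 of the 8. VIL1 was higher by 1.00 (SE 0.26, adjusted p = 0.0334), with 25.6 and 28.2 FPKM with the 76 3P extract, against 8.91 and 18.4 FPKM with 5-FU. TSPAN8 was lower, at -1.62 (SE 0.39, adjusted p = 0.0281), as were CA2, at -1.24 (SE 0.31, adjusted p = 0.0295), and CEACAM1, at -0.86 (SE 0.21, adjusted p = 0.0290). CDX2 differed by 0.63 (SE 0.22, adjusted p = 0.0773). Voom called 5 of the 8, 2 higher and 3 lower, and 3014 of all 13388 genes. Each of the 4 calls was lost with 1 library or another left out, and without a filter on low values (adjusted p = 0.1254 to 0.1646), where 0 of 33187 genes were called. That of CEACAM1 was lost whichever library was left out (adjusted p = 0.0501 to 0.101) and with scaling to total reads (-0.74, adjusted p = 0.0537). That of TSPAN8 was lost without the 76 3P library at 48 h (-1.05, adjusted p = 0.208), the 5-FU library at 48 h (adjusted p = 0.145) or the 5-FU library at 24 h (adjusted p = 0.0834). That of CA2 was lost without the 76 3P library at 24 h (-0.67, adjusted p = 0.0869), the 5-FU library at 48 h (-1.56, adjusted p = 0.0865), the 5-FU library at 24 h (-0.91, adjusted p = 0.110) or the 74 3NP library at 48 h (adjusted p = 0.05). That of VIL1 was lost without either control library (adjusted p = 0.0532 and 0.0533), either 74 3NP library (0.0571 and 0.0565), the 5-FU library at 48 h (0.68, adjusted p = 0.194) or the 76 3P library at 48 h (0.77, adjusted p = 0.212).

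Between the extracts the test called 0% of all genes and 0 of the 8, although the unadjusted p was under 0.05 for 4 of the 8 and for 1726 of all genes, and voom made 15 calls, none of them among the 8. CEACAM1 was farthest from 0 for its error, at 1.03 (SE 0.21, adjusted p = 0.158) in the 74 3NP libraries relative to the 76 3P libraries. Its ratio was 2.18 (1.98 to 2.39) at 48 h and 2.51 (2.23 to 2.83) at 24 h, the 74 3NP extract being higher each time. CEACAM6 was also higher each time with the 74 3NP extract, 1.42-fold (1.27 to 1.58) at 48 h and 4.35-fold (3.70 to 5.14) at 24 h, and so was CDX2, 1.98-fold (1.70 to 2.31) and 1.38-fold (1.14 to 1.66). CEACAM5 and TSPAN8 were not alike at the 2 times. CEACAM5 with the 74 3NP extract was at 0.414 times the 76 3P level (0.347 to 0.492) at 48 h and at 6.02 times (4.21 to 8.80) at 24 h, while TSPAN8 was at 5.04 times (4.32 to 5.89) at 48 h and at 1.04 times (0.884 to 1.22) at 24 h.

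Across all treatments, 48 h against 24 h gave 0% of all genes and 0 of the 8 (3 of the 8 and 1394 of all genes at an unadjusted p under 0.05, none by voom). The ratio farthest from 1 was that of CEACAM5 with the 76 3P extract. From the 2 libraries of that extract, the 48 h level was 16.9 times the 24 h level for CEACAM5 (12.2 to 24.0), 4.17 times for CA2 (2.90 to 6.14), 3.65 times for CEACAM6 (3.11 to 4.29) and 1.83 times for CEACAM1 (1.62 to 2.06), while TSPAN8 was at 0.644 times (0.542 to 0.763). In controls the same ratio was 0.639 (0.483 to 0.843) for CEACAM5, 1.18 (0.821 to 1.69) for CA2, 0.796 (0.675 to 0.938) for CEACAM6, 1.09 (0.980 to 1.21) for CEACAM1 and 1.13 (1.04 to 1.23) for TSPAN8. The part that the higher mitochondrial share and the wider gene detection of the 76 3P library at 48 h have in these values was not tested. In the 74 3NP pair the 48 h level was 3.11 times the 24 h level for TSPAN8 (2.70 to 3.61), 1.94 times for CDX2 (1.64 to 2.29) and 0.588 times for VIL1 (0.561 to 0.617). With 5-FU it was 2.17 times for CEACAM6 (1.88 to 2.51), 1.56 times for DPP4 (1.46 to 1.67) and 0.483 times for VIL1 (0.449 to 0.519).

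**Figure D4:**
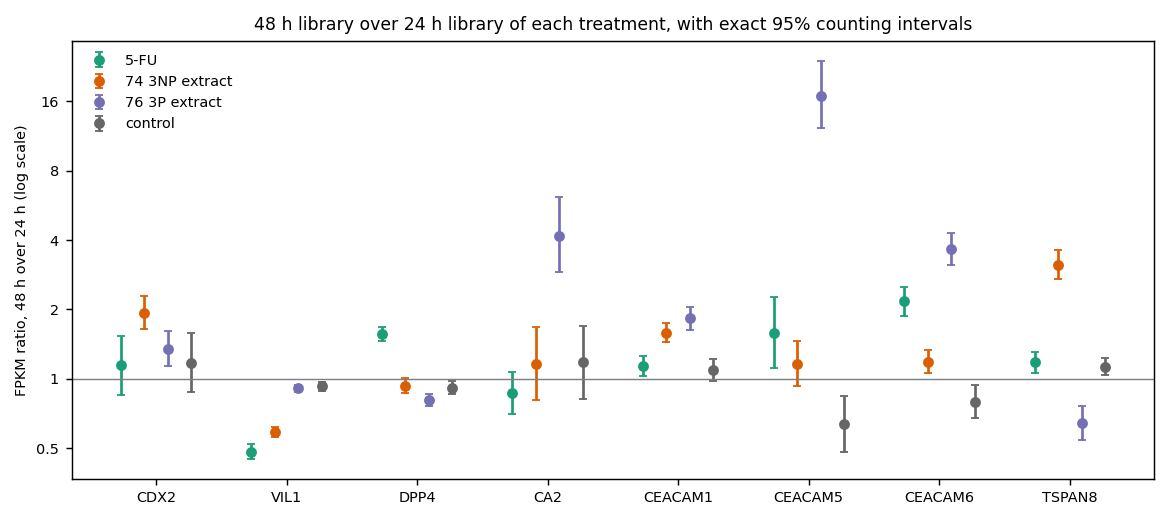
FPKM ratio of the 48 h library over the 24 h library of each treatment (vertical axis, log scale; the grey line is 1) for the 8 tested genes, with exact 95% intervals that cover counting error only; colours are treatments, with the control at the right of each group. CEACAM5 in the 76 3P libraries stands at 16.9, and the control ratios lie between 0.639 and 1.18.

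Related genes were read from lists of the same families and functions. Of 19 other CEA family genes 2 were tested, CEACAM19 and CEACAM7, and neither passed with any treatment (list medians 0.45 with 5-FU, 1.00 with the 74 3NP extract and 1.11 with the 76 3P extract). CEACAM7, a CEA relative of the colon surface epithelium, stood at 11.7 FPKM at 48 h and 0.0128 FPKM at 24 h with the 76 3P extract and at 4.47 and 0.890 FPKM with the 74 3NP extract, against 0.0329 FPKM at 48 h and 0.0695 FPKM at 24 h in controls. Its mean difference was 1.77 (SE 0.75, adjusted p = 0.273) with the 76 3P extract and 1.61 (SE 0.75, adjusted p = 0.429) with the 74 3NP extract. It passed the filter through extract libraries alone.

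Of the other brush border cytoskeleton and adhesion genes, 18 of 19 names were found and 12 tested, and none passed against control (medians 0.12 with 5-FU, 0.22 with the 74 3NP extract and 0.24 with the 76 3P extract). ESPN, the actin bundler espin, differed by 1.76 (SE 0.53, adjusted p = 0.161) with the 76 3P extract and by 1.54 (SE 0.53, adjusted p = 0.333) with the 74 3NP extract. ESPN stood at 11.1 FPKM at 48 h and 1.09 FPKM at 24 h with the 76 3P extract and at 3.43 and 3.22 FPKM with the 74 3NP extract. In controls it was at 0.578 and 0.404 FPKM, so it passed the filter through treated libraries alone. CDHR5, a cadherin that links microvilli, differed by 1.24 (SE 0.38, adjusted p = 0.168) with the 76 3P extract. With 5-FU, 8 of the 12 differences were above 0, the highest being CDHR5 (0.95, adjusted p = 0.148) and SLC9A3R1 (0.84, adjusted p = 0.0765), a scaffold that binds ezrin, at 198 and 133 FPKM, against 89.1 and 91.4 FPKM in controls. The lowest with 5-FU were USH1C (-0.59, adjusted p = 0.128), the harmonin scaffold of the microvillus tips, and PLS1 (-0.57, adjusted p = 0.144), the actin bundler fimbrin of the intestine. Of the 7 tested enzymes and transporters 1 passed with 5-FU, where 5.53% of all genes did: DPEP1, a membrane dipeptidase, rose by 1.87 (SE 0.42, adjusted p = 0.0440), to 7.51 and 3.25 FPKM, against 0.319 and 1.06 FPKM in controls. SLC5A1, the sodium-glucose cotransporter, stood at 16.6 and 4.42 FPKM with the 76 3P extract, against 3.64 and 2.78 FPKM in controls (1.22, SE 0.42, adjusted p = 0.200). The list medians were -0.0027 with 5-FU, 0.03 with the 74 3NP extract and 0.38 with the 76 3P extract. SLC9A3 and ACE in this list passed the filter through extract libraries alone, which biases the extract medians upwards.

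Of 20 other intestinal transcription factors 14 were tested, and 1 passed with 5-FU, a share near the 5.53% of all genes: VDR, the vitamin D receptor, rose by 1.09 (SE 0.20, adjusted p = 0.0315), to 15.96 and 18.8 FPKM, against 7.36 and 7.81 FPKM in controls. KLF4, a factor of differentiating gut epithelium, stood at 16.2 and 16.4 FPKM with the 76 3P extract, against 6.77 and 7.13 FPKM in controls (1.12, SE 0.23, adjusted p = 0.0924). SOX9, a factor of crypt progenitors, was at 15.002 and 39.1 FPKM with 5-FU, against 60.5 and 56.0 FPKM in controls (-1.23, SE 0.33, adjusted p = 0.0621). With the 74 3NP extract the lowest was HNF4G, a nuclear receptor of enterocytes, at -0.81 (SE 0.25, adjusted p = 0.287), and the highest were VDR at 0.63 (SE 0.20, adjusted p = 0.293) and HNF4A, a relative of HNF4G, at 0.43 (SE 0.18, adjusted p = 0.395). The medians were -0.19 with 5-FU, 0.03 with the 74 3NP extract and -0.10 with the 76 3P extract. Of 25 other tetraspanins 21 were tested (medians 0.29 with 5-FU, 0.15 with the 74 3NP extract and 0.03 with the 76 3P extract), and 1 passed with 5-FU, again near the 5.53% of all genes: CD82 rose by 1.11 (SE 0.23, adjusted p = 0.0408), to 123 and 72.2 FPKM, against 45.4 and 41.3 FPKM in controls. The lowest of the tetraspanins with the 76 3P extract was TSPAN1, at -0.66 (SE 0.25, adjusted p = 0.234), beside -2.08 for TSPAN8. The highest were TSPAN33, at 1.06 (SE 0.24, adjusted p = 0.116), and TSPAN7, at 0.99 (SE 0.29, adjusted p = 0.157). TSPAN7 and TSPAN10, under 1 FPKM in both controls, passed the filter through treated libraries alone, which biases the medians upwards. The 3 calls with 5-FU were each lost without the 5-FU library at 48 h (DPEP1 1.16, adjusted p = 0.263; VDR 1.04, adjusted p = 0.165; CD82 0.83, adjusted p = 0.205), without either control library (adjusted p = 0.131 to 0.421) and without either 74 3NP library (adjusted p = 0.0581 to 0.0772). That of DPEP1 was also lost with a pseudocount of 5 (0.84, adjusted p = 0.0603), with median-ratio scaling (adjusted p = 0.0513) and with quantile normalization (adjusted p = 0.0534), and all 3 without a filter (adjusted p = 0.179 to 0.238). Without a filter 0 of 33187 genes were called, and without either 74 3NP library 20 of 13388. The losses named here with a library left out or no filter were thus shared by nearly all genes called, and are not particular to these 3.

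Of 12 other carbonic anhydrases 5 were tested and none passed (medians 0.08 with 5-FU, 0.68 with the 74 3NP extract and 0.79 with the 76 3P extract). In controls CA11 was at 0.830 and 0.331 FPKM and CA14 at 0.570 and 0.419 FPKM. Both passed the filter through treated libraries alone, which biases the medians upwards. CA9, a membrane enzyme known as a hypoxia-induced gene, stood at 33.4 and 8.68 FPKM with the 74 3NP extract, against 8.34 and 4.30 FPKM in controls (1.38, SE 0.36, adjusted p = 0.236), and CA12, another membrane enzyme, at 20.8 and 23.3 FPKM with the 74 3NP extract, against 9.99 and 9.13 FPKM in controls (1.12, SE 0.39, adjusted p = 0.333). With 5-FU, where CA2 was highest, CA12 differed by 0.46 (SE 0.39, adjusted p = 0.450) and CA9 by -0.18 (SE 0.36, adjusted p = 0.767). Of 7 other dipeptidyl and prolyl peptidases 6 were tested and none passed (medians -0.13 with 5-FU, -0.05 with the 74 3NP extract and -0.20 with the 76 3P extract). The nearest to the threshold were DPP9, a cytosolic relative of DPP4, at 1.16 (SE 0.29, adjusted p = 0.0528), and DPP7, a peptidase of intracellular vesicles, at -0.77 (SE 0.19, adjusted p = 0.0543), both with 5-FU.

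**Figure D5:**
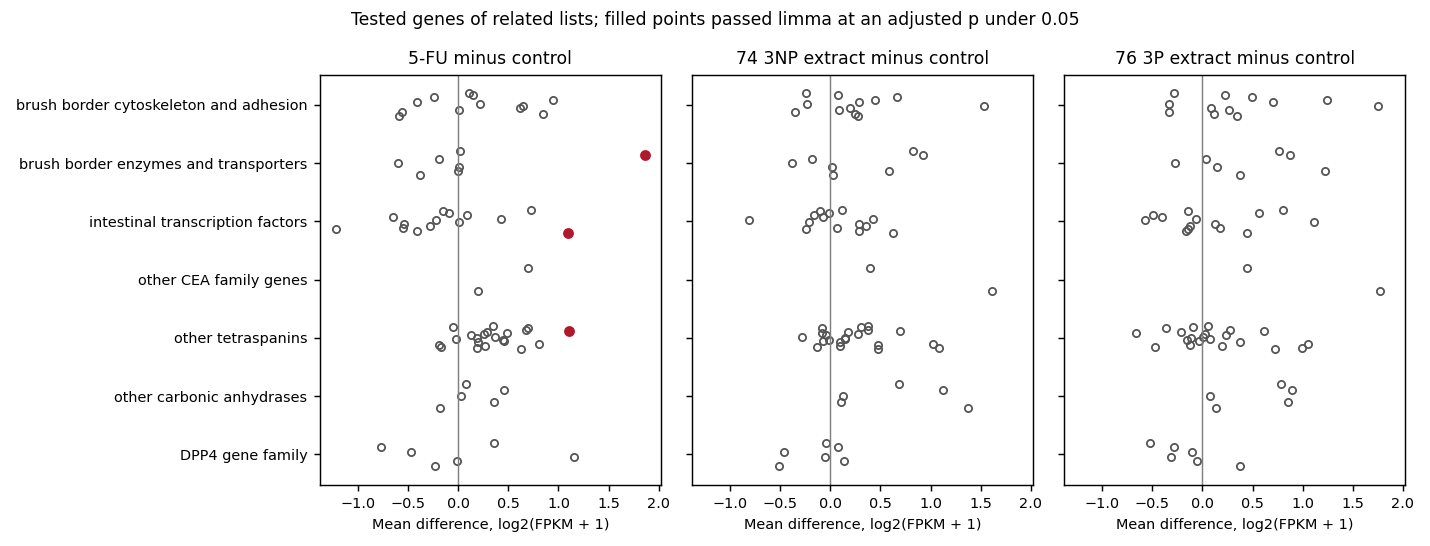
Mean limma difference from control on the log2(FPKM + 1) scale (horizontal axis) for each tested gene of the 7 related lists, a panel for each treatment; filled red points passed an adjusted p of 0.05 and open points did not, and the height within a list has no meaning. The 3 filled points, all with 5-FU, are DPEP1 (1.87), VDR (1.09) and CD82 (1.11).

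For the 3 genes with the widest range of log2(FPKM + 1) over the libraries, TSPAN8 (2.42), CEACAM5 (2.31) and CEACAM6 (1.97), the 9490 protein-coding genes with a mean of at least 2 FPKM were ranked by how closely their centred values followed over the 8 libraries, as the root mean square difference. Closest to TSPAN8 were RAD51AP1 (0.31) and TFPI (0.33), where TSPAN8 itself varied by 0.87 around its mean. RAD51AP1 stood at 2.67 and 4.69 FPKM with the 76 3P extract, against 11.3 and 10.99 FPKM in controls. Closest to CEACAM5, which varied by 0.67, were GGT7 and PDIA5 (0.28 each), and PDIA5 stood at 13.4 FPKM at 48 h and 4.50 FPKM at 24 h with the 76 3P extract, against 5.03 and 4.44 FPKM in controls. Closest to CEACAM6, which varied by 0.65, were PLEKHB1 (0.24) and A4GALT (0.30), and PLEKHB1 stood at 24.3 and 15.6 FPKM with the 74 3NP extract, against 9.84 and 7.15 FPKM in controls. The points share the same libraries, and likeness here is a description.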

How the data were processed

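Total RNA of 8 HT-29 libraries was sequenced on an Illumina platform, per the labels' protocols. The submitters' processing notes name HISAT2 2.0.5, GRCh38 and hg38. The sources used here give neither the counting tool nor the annotation release. The authors deposited 1 table of FPKM for 60796 genes, which also holds gene lengths and positions, per the file headers. Their other deposited table gives, for each library, counts of sequenced and clean reads and percent values such as GC content: clean reads numbered 44361052 to 68674126 and GC was 51.88% to 53.94%. Within a library, the product of FPKM and gene length rose in equal steps for 100% of values (tolerance 0.01 reads). Reads were therefore recovered, and gave the exact 95% intervals and the limit of 3 reads for a count of 0.

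Genes at 1 FPKM or more in at least 2 libraries were tested (13388), so a gene low in controls could enter through treated libraries alone. On log2(FPKM + 1), limma 3.58.1 (R 4.3.3) was run over the 8 libraries with an additive model of treatment and time and a trended variance (3 residual degrees of freedom). A treatment difference that is not the same at 48 h and 24 h thus counts as spread. Tests were two-sided, with Benjamini-Hochberg adjustment within each of 7 contrasts and a threshold of 0.05. The fit was tested on simulated data. Other tables were made with Python 3.11.15.

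Alternatives were pseudocounts of 0.1 and 5, a filter at 5 FPKM or none, 3 other scalings, no variance trend, voom, fits of the 4 libraries compared, time alone, and each library left out. The 10 genes and the lists were chosen with earlier results of these data known. Named genes are the 10, the 2 highest and 2 lowest tested genes of each list and treatment (the text gives some of these), and the 2 nearest genes for the 3 widest-ranging of the 10. Promoters came from RefSeq, and were aligned globally for the CEACAM genes.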

Additional observations from a re-analysis of the deposited data

Results flagged for a closer look

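For 5 pairs of gene and treatment, the treated library lay on opposite sides of its control at the 2 times, with both 95% counting intervals off 1. Each rests on 1 library against 1 library per time, and the difference between the times was not tested. The values are the log2(FPKM + 1) difference from control at 48 h minus that at 24 h. With the 76 3P extract this was 2.67 for CEACAM5, 1.78 for CEACAM6 and 1.03 for CA2, each higher than control at 48 h and lower at 24 h. With 5-FU it was 0.73 for DPP4, higher than control at 48 h and lower at 24 h. With the 74 3NP extract it was -0.64 for VIL1, lower than control at 48 h and higher at 24 h. The 76 3P library at 48 h, on which the first 3 rest, is the one with 6.83% of reads on mitochondrial genes and 26712 genes above 0, and the part of these in the values was not tested.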

How the results depend on the processing

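The number of the 8 genes called changed with the processing. The filter at 5 FPKM left 5 of the 8 in the test, without CDX2, CEACAM5 and CA2. With no filter, CDX1 and ANPEP were tested as well. Calls over all genes of the same fit are given beside each count. Fits that left 1 library in a compared treatment are not listed one by one, and some of these changed the count as well. With 5-FU against control (0 called) it was 1 with a pseudocount of 5 (486 of 13388 genes), a filter at 5 FPKM (914 of 8059) or scaling to total reads (763 of 13388). It was also 1 with quantile normalization (586 of 13388) or voom (1137). In the fit of the 4 libraries compared it was 2 (1203 of 13388), and with 1 extract library left out 0 to 2 (20 to 1109). For the 74 3NP extract against control (0) it was 3 in the fit of 4 libraries (1344 of 13388). For the 76 3P extract against control (0) it was 1 with a filter at 5 FPKM (160 of 8059) and 1 in the fit of 4 libraries (288 of 13388). With 1 library of 5-FU or of the 74 3NP extract left out it stayed at 0. For the 74 3NP extract against 5-FU (2) it was 0 without a filter (0 of 33187) and 1 with a filter at 5 FPKM (1396 of 8059), where CDX2 was not tested. It was 3 with a pseudocount of 5 (1260 of 13388) and in the fit of 4 libraries (1796). With 1 control or 76 3P library left out it was 1 to 3 (517 to 2068). For the 76 3P extract against 5-FU (4) it was 0 without a filter, where 33187 genes share the adjustment and 0 of them were called. It was 3 with a filter at 5 FPKM (2232 of 8059) or scaling to total reads (2480 of 13388), and 5 with voom (3014). With 1 control or 74 3NP library left out it was 1 to 2 (1362 to 1538). Between the extracts and between the times no alternative moved the count from 0. Over all genes, the calls ranged over the settings from 0 to 2589 with 5-FU against control (740), from 0 to 1344 with the 74 3NP extract against control (7), from 0 to 803 with the 76 3P extract against control (0), from 0 to 2565 with the 74 3NP extract against 5-FU (1445), from 0 to 3644 with the 76 3P extract against 5-FU (2587), from 0 to 79 between the extracts (0) and from 0 to 2 between the times (0). The highest of these came without the 5-FU library at 24 h (2589, 2565 and 3644), in the fit of 4 libraries (1344), without the 76 3P library at 24 h (803 and 79) and with a filter at 5 FPKM (2).

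Some mean differences from control changed sign, several of them near 0, and the cause was not tested. The farthest from 0 among those named below were CEACAM5 with the 74 3NP extract (0.50), CEACAM6 with 5-FU (0.50) and CEACAM5 with the 76 3P extract (0.41). VIL1 with the 74 3NP extract (0.04) was -0.0056 with quantile normalization and -0.21 to 0.30 with 1 library left out. VIL1 with the 76 3P extract (-0.03) was 0.032 with median-ratio scaling and 0.0305 with quantile normalization, and -0.29 to 0.22 with 1 library left out. CEACAM6 with the 76 3P extract (0.02) was -0.0164 with a pseudocount of 0.1. CA2 with the 76 3P extract (0.0082) was -0.10 with a pseudocount of 0.1, -0.0596 with quantile normalization and -0.043 with voom. With 1 library left out, the 76 3P differences ranged from -0.58 to 0.63 for CEACAM6, from -0.56 to 0.57 for CA2, from -0.73 to 1.55 for CEACAM5 and from -0.41 to 0.0055 for DPP4. The 1.55 for CEACAM5 came without the 76 3P library at 24 h, with 1 library of that extract left. The 5-FU differences ranged from -0.0147 to 0.28 for CDX2, from -0.90 to 0.38 for CEACAM5, from -0.089 to 1.08 for CEACAM6 and from -0.46 to 0.31 for DPP4, and that of CEACAM5 with the 74 3NP extract from -0.14 to 1.14. Each single-gene result was paired with each alternative setting. Of these pairs, 603 kept direction and side of the threshold, 24 came inside it, 36 left it and 25 changed sign. For comparisons other than those with control, only results with an unadjusted limma p under 0.05 in the main fit were followed. Depth limits CDX1 and ANPEP, with 35 reads or fewer in any library.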
